A study of Mus musculus with 6 samples.

Results

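The genes described here encode the nuclear part of the oxidative phosphorylation machinery. They were chosen by symbol alone: probe sets that the array annotation assigns to 1 gene were taken where that symbol starts with Nduf, Uqcr or Atp5, starts with Cox followed by a digit from 4 to 8, or is Sdha, Sdhb, Sdhc, Sdhd or Cyc1. Of 18193 genes on the array, 91 met the rule, with 180 probe sets between them. For each gene the probe set with the highest mean over the 6 arrays was used. With a filter that kept probe sets whose mean log2 intensity was at least 4.74, the 20th percentile of all probe sets, 89 of the 91 genes remained, among 15346 genes in all. The 2 genes below the filter were Cox7b2, with a mean of 3.79, and Ndufb4, with a mean of 4.33. The 89 genes held 33 of complex I, 4 of complex II, 9 of complex III, 16 of complex IV, 17 of complex V, 8 assembly factors of the Ndufaf series, and Ndufa4l2 and Cox7a2l, which were kept apart as other members. Ndufa4, named for complex I, was counted with complex IV, where its protein is now placed.

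Oxidative phosphorylation makes most of the ATP of a neuron. Complexes I and II of the inner mitochondrial membrane take electrons from NADH and succinate, complex III passes them to cytochrome c, complex IV gives them to oxygen, and complexes I, III and IV pump protons that drive ATP synthesis by complex V. The subunits come from both the nuclear and the mitochondrial genome, so that nuclear genes such as these make only a share of each complex other than complex II. Retinal ganglion cells (RGCs), the output neurons of the retina, are among the cells most affected when complex I fails, as in Leber hereditary optic neuropathy.

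The study compared RGCs that project to the same side of the brain with those that cross the midline, in C57BL/6J mouse embryos labelled E16 and harvested at E16.5. No genotype or drug differed between the sides. Rhodamine-conjugated dextran was placed on the cut optic tract of isolated heads for 2 h, the retinas of 2 litters were pooled by side and dissociated with papain, and dye-positive cells that excluded DAPI were sorted by FACS. There were 3 rounds, each with 1 ipsilateral and 1 contralateral array, and thus 3 arrays per side. The rounds hybridized were those in which the ipsilateral cells had the strongest enrichment of Zic2, a transcription factor of ipsilateral RGCs, and equal amounts of RNA from both sides of a round were amplified. All values below are log2 intensities, and a difference is the ipsilateral minus the contralateral value of the same round.

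Many promoters of this gene group are known to carry the palindromic site of NRF1, a transcription factor that regulates nuclear genes for respiration. The stretches that hold its core letters are shown because they are a feature the choice by symbol did not use. Among 74 members with promoter sequence in RefSeq (GRCm38.p6), the letters GCATGCGC, searched on both strands in the 250 bases before the start, occurred in 8 genes, or 10.8%, and in 2.56% of 27025 genes in all. In 4 of the 8 the letters extend to GCGCATGCGC, which reads the same on both strands. Capitals mark the matched letters, and each stretch is written in the direction of the gene.
Ndufa8 (chr2:36049339-36049372, minus strand): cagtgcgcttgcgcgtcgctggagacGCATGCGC
Ndufaf4 (chr4:24897944-24898005, plus strand): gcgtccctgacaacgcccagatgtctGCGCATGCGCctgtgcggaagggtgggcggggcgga
Sdhb (chr4:140961191-140961250, plus strand): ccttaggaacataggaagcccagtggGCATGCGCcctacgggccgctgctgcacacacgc
Atp5k (chr5:108434414-108434475, minus strand): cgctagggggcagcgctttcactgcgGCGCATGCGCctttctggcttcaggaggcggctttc
Cox6a1 (chr5:115349085-115349146, minus strand): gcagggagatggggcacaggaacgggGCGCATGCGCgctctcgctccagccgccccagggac
Atp5l (chr9:44920949-44920992, minus strand): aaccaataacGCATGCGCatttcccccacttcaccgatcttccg
Ndufa6 (chr15:82354341-82354400, minus strand): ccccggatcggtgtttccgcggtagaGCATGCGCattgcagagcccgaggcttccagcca
Atp5g2 (chr15:102671054-102671115, minus strand): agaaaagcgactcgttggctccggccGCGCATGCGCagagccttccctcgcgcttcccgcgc
The matched letters ended at the base before the start in Ndufa8 and lay farthest from it in Atp5l, where they began 240 bases upstream. These 8 genes cover complexes I, II, IV and V and 1 assembly factor. The mean side difference was above 0 in 2 of them and below 0 in 6, from −0.24 in Atp5l to 0.46 in Atp5g2, with a median of −0.06. The letters CCGGAAGT, a core of the sites of GABPA, were found in 3 of the 74 members (4.05%) and in 3.23% of all genes, and AAGATGGC, a core of those of YY1, in 1 member (1.35%) and in 1.83% of all genes. A match of letters is a description of the sequence and does not show that a factor was bound.

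The medians of the arrays over all probe sets were 5.81, 6.70 and 6.33 for ipsilateral RGCs in rounds 1, 2 and 3, and 5.80, 6.65 and 6.26 for contralateral RGCs. Pan-RGC markers were present on both sides. Of 16 listed genes, 15 had a probe set assigned to 1 gene, and all 15 passed the filter. Their summed level (log2 of the summed linear intensities) ranged from 15.5 to 15.8 in ipsilateral and from 15.8 to 16.1 in contralateral RGCs. None of the 15 was called, but all 15 were lower in ipsilateral RGCs in each round, with a median difference of −0.44, where 20.2% of all genes were lower in each round. The list includes Pou4f1, known as a marker of contralateral RGCs. Markers of other cells differed between the same arrays. Of 14 microglia and macrophage genes, 8 were called higher in ipsilateral RGCs by limma, with a summed level of 13.0 to 13.6 against 8.75 to 10.1, and 2 of 9 retinal progenitor genes (13.3 to 14.4 against 12.7 to 12.8) and 1 of 12 cell division genes (at most 13.6 against at most 10.7) were called higher too. Of 12 immediate early genes, which respond to handling of cells, 2 were called higher, while 0 of 5 endothelial and 0 of 3 red blood cell genes were called. Over all genes 0.358% were called higher, so 0 among so few genes says little. The summed level of the endothelial genes was 8.72, 9.29 and 9.93 in ipsilateral and 8.45, 9.01 and 9.04 in contralateral RGCs of rounds 1, 2 and 3. Of these 5 genes, 2 were higher and 2 lower in all 3 rounds. With the replicate block, an adjusted p under 0.05 was found for 7 of the microglia and macrophage genes, 0 of the progenitor genes, 0 of the cell division genes and 4 of the immediate early genes. Over all genes, 0.319% were higher and 0% lower at that adjusted p. The part of these markers in the values of the respiratory genes was not tested. In such sorted bulk samples, fewer cells of a type and less RNA per cell cannot be told apart.

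None of the 89 genes of oxidative phosphorylation differed between ipsilateral and contralateral RGCs by the test. A call needed a change of at least 2-fold with a Benjamini–Hochberg adjusted p under 0.05 in limma over all probe sets kept, and it was met by 0 members in either direction, where 0.358% of all 15346 genes were called higher and 0% lower. Over the whole series this fit called 88 probe sets higher and 0 lower. The study's own list at these thresholds is longer and holds genes in both directions, so 0 members called is not particular to this group. Without adjustment, 0 of 89 members had p under 0.05 in either direction, against 2.74% of all genes higher and 0.3% lower. The adjusted p of limma was 1 after rounding for every member. With the replicate number as a block, which removes what the 2 arrays of a round share, limma again called 0 members, and the background was 0.319% higher and 0% lower. In that fit 3 members were higher (Atp5g2, Ndufa12 and Ndufs7) and 3 lower (Ndufa1, Ndufs5 and Cox5a) at an unadjusted p under 0.05, or 3.37% in each direction against 7.91% and 6.63% of all genes, and the lowest adjusted p was 0.263, for Ndufa1.

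A p that misses the threshold does not show that the sides were equal, so the size of the differences is given as well. The mean difference of the members had a median of −0.03, the middle 50% of them lay from −0.12 to 0.08, and the extremes were −0.81 (Ndufaf5) and 0.46 (Atp5g2). For all genes the median was −0.01 and the middle 50% lay from −0.18 to 0.15. The difference was under 0.25 in size in 76 of 89 members, or 85.4%, against 64.2% of all genes, and under 0.5 in 87 of 89, with Ndufa1 and Ndufaf5 as the exceptions. Among genes in the brighter 50% of probe sets, these shares under 0.25 were 89.2% for 83 members and 59% for 10614 genes. A mean difference of 2-fold or more was seen in 0 of 89 members and in 2.97% of all genes, and none of the 171 probe sets of members past the filter reached it. The 95% interval of the difference lay within 2-fold in either direction for 43 of 89 members without the block (48.3%, against 21.5% of all genes), and for 87 of 89 with it (97.8%, against 85% of all genes). The 2 whose blocked interval reached past 2-fold were Cox7c and Ndufaf5.

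**Figure D1:**
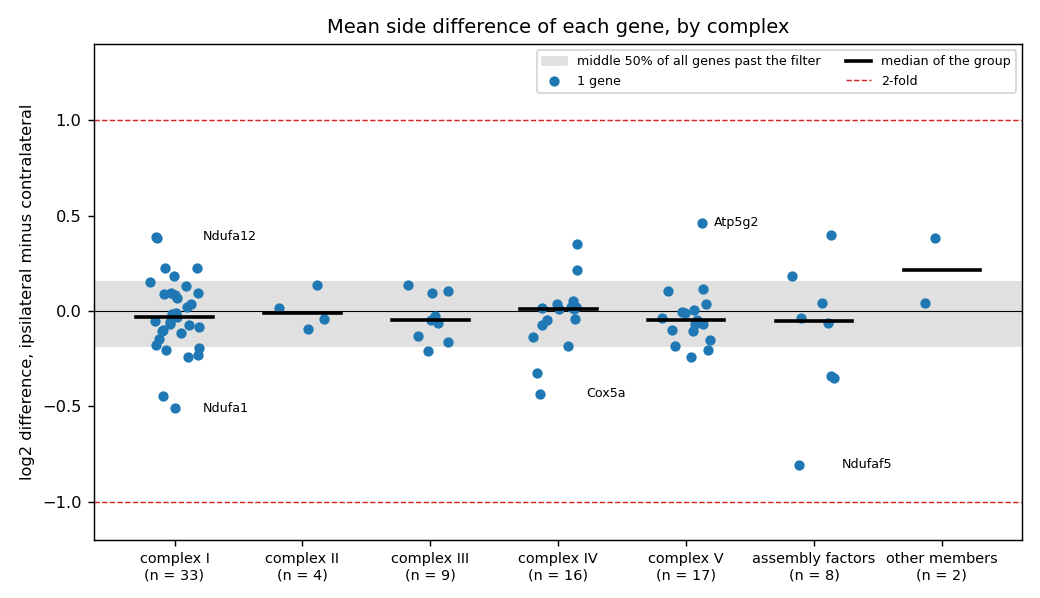
Each point is the mean log2 difference, ipsilateral minus contralateral, of 1 gene over 3 rounds, grouped by complex, with black lines at the group medians, a grey band for the middle 50% of all 15346 genes and dashed lines at 2-fold. All points lie inside the dashed lines, and the medians of complexes I to V lie between −0.05 and 0.01.

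The plot of mean differences by complex places the members around 0 in each complex. The median was −0.03 in complex I, −0.01 in complex II, −0.05 in complex III, 0.01 in complex IV and −0.05 in complex V. The standard error of a single gene was larger than these medians, at a median of 0.41 without and 0.16 with the block over the 89 members. Differences under 0.25 in size were found in 29 of 33 genes of complex I, 4 of 4 of complex II, 9 of 9 of complex III, 13 of 16 of complex IV and 16 of 17 of complex V.

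Complex I takes electrons from NADH, and its genes held the most negative difference among subunits of the complexes, in Ndufa1, a small accessory subunit of the membrane arm. Ndufa1 measured 11.18, 10.87 and 11.30 in ipsilateral RGCs of rounds 1, 2 and 3, and 11.49, 11.59 and 11.80 in contralateral RGCs. All ipsilateral values lay below all contralateral ones, with a mean difference of −0.51 ± 0.20 (SD, n = 3 rounds). The 95% interval was −1.34 to 0.32 without and −0.90 to −0.12 with the block.

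Ndufa12, an accessory subunit of the matrix arm, was the only other member whose groups did not overlap. It measured 10.21, 10.33 and 10.26 in ipsilateral and 9.83, 9.84 and 9.96 in contralateral RGCs, a difference of 0.39 ± 0.10 (SD, n = 3 rounds) with an interval of −0.42 to 1.20 (0.03 to 0.74 with the block). The 3 further probe sets of Ndufa12 that passed the filter did not show this difference, with 0.07, 0.05 and −0.03. Groups without overlap were thus seen in 1 member upward and 1 downward, or 1.12% in each direction, where 3.84% and 1.98% of all genes had them.

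Of the subunits that carry electrons within complex I, Ndufs7, which holds an iron-sulfur cluster next to the quinone site, measured 8.76, 10.15 and 9.77 in ipsilateral and 8.30, 9.72 and 9.52 in contralateral RGCs. The ipsilateral value was higher in each round, by 0.38 ± 0.11 (SD, n = 3 rounds), but the rounds lay farther apart than the sides and the groups overlapped. Its other probe set gave 0.20. Ndufs1, the largest subunit with iron-sulfur clusters, had differences of 0.05, −0.65 and −0.09, and Ndufv1, which binds the NADH, 0.17, 0.20 and −0.12. Neither had the same sign in all 3 rounds. Ndufs5, an accessory subunit, measured 7.31, 8.18 and 7.91 in ipsilateral and 7.40, 8.91 and 8.43 in contralateral RGCs, a mean difference of −0.45 ± 0.32 (SD, n = 3 rounds).

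Complex II is the succinate dehydrogenase shared with the citric acid cycle. Sdha, its flavoprotein, measured 10.51, 10.93 and 11.19 in ipsilateral and 10.47, 10.79 and 10.95 in contralateral RGCs, a difference of 0.14 ± 0.10 (SD, n = 3 rounds), and its 3 probe sets past the filter had a positive mean difference, from 0.12 to 0.22. Sdhb, the iron-sulfur partner of Sdha, had the opposite sign, with −0.03, −0.06 and −0.20. The membrane anchors Sdhc and Sdhd had mean differences of −0.04 and 0.02. In complex III, the mean differences were −0.13 for Uqcrfs1, the Rieske iron-sulfur protein, 0.09 for Cyc1, cytochrome c1, and −0.16 for Uqcrc1, a core protein. The small subunits Uqcr11 and Uqcr10 marked the ends of this complex, at 0.13 and −0.21, and Uqcr11 was higher in ipsilateral RGCs in each round. The further probe sets of Uqcr10 past the filter had the opposite sign, with 0.01 and 0.14. Uqcrh, the hinge protein, had 0.11.

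In complex IV, the cytochrome c oxidase, 0 of 16 genes were higher in ipsilateral RGCs in all 3 rounds, against 17.6% of all genes. Lower in all 3 rounds were 2 of 16 (12.5%), against 20.2% of all genes. One of the 2 was Cox5a, a nuclear subunit facing the matrix. Cox5a measured 10.23, 10.66 and 10.89 in ipsilateral and 10.43, 11.39 and 11.26 in contralateral RGCs, a difference of −0.43 ± 0.28 (SD, n = 3 rounds) with an interval of −1.34 to 0.47 (−0.85 to −0.01 with the block). Its other 2 probe sets that passed the filter gave −0.42 and −0.31, and all 3 were lower in ipsilateral RGCs in each round. The other gene lower in each round was Cox7a1, the form typical of heart and skeletal muscle, with −0.45, −0.21 and −0.32. Its only probe set had a low mean level of 5.11 and lay below the median of all probe sets on each array. Cox7a2, the common form, had a mean difference of 0.02.

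Several subunits of complex IV exist as a common form and as a form typical of particular tissues, and the paired forms were compared for side differences only. Cox4i1 had a mean difference of 0.01 and Cox4i2, a form known from lung, 0.02. For the muscle form Cox6a2 and the common Cox6a1 the means were 0.05 and −0.18, for the testis form Cox6b2 and Cox6b1 they were 0.01 and −0.07, and for Cox8a, Cox8b and Cox8c they were 0.21, 0.04 and −0.05. None of these forms was called. The largest positive value in complex IV, 0.35 in Cox7c, came from differences of 0.99, −0.38 and 0.44, from a probe set with a mean level of 5.55, and the other probe set of the gene gave −0.24.

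Complex V, the ATP synthase, held the largest positive mean difference of the 89 members, in Atp5g2. Atp5a1, the catalytic head's alpha subunit, measured 12.68, 12.73 and 12.90 in ipsilateral and 12.68, 12.75 and 12.85 in contralateral RGCs. The difference was 0.01 ± 0.04 (SD, n = 3 rounds) with a 95% interval of −0.80 to 0.82 (−0.34 to 0.35 with the block). Both other probe sets of Atp5a1 passed the filter and were lower in ipsilateral RGCs in each round, with means of −0.06 and −0.17. Atp5b, the catalytic beta subunit, had a mean of −0.05. Atp5g1, Atp5g2 and Atp5g3 encode the same mature c subunit of the membrane ring and differ in the peptide that directs import. Atp5g2 measured 8.38, 8.82 and 8.49 in ipsilateral and 7.72, 8.55 and 8.04 in contralateral RGCs, a difference of 0.46 ± 0.20 (SD, n = 3 rounds) with an interval of −0.40 to 1.33 (0.08 to 0.85 with the block). Atp5g2 was higher in each round and Atp5g3 lower in each, with a mean of −0.15, while Atp5g1 had −0.11. Both other probe sets of Atp5g2 were below the filter. Atp5l and Atp5o, subunits of the membrane part and of the stalk that holds the head, were lower in each round, with means of −0.24 and −0.21, and Atp5c1, the rotating gamma subunit, was higher in each, with 0.12.

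**Figure D2:**
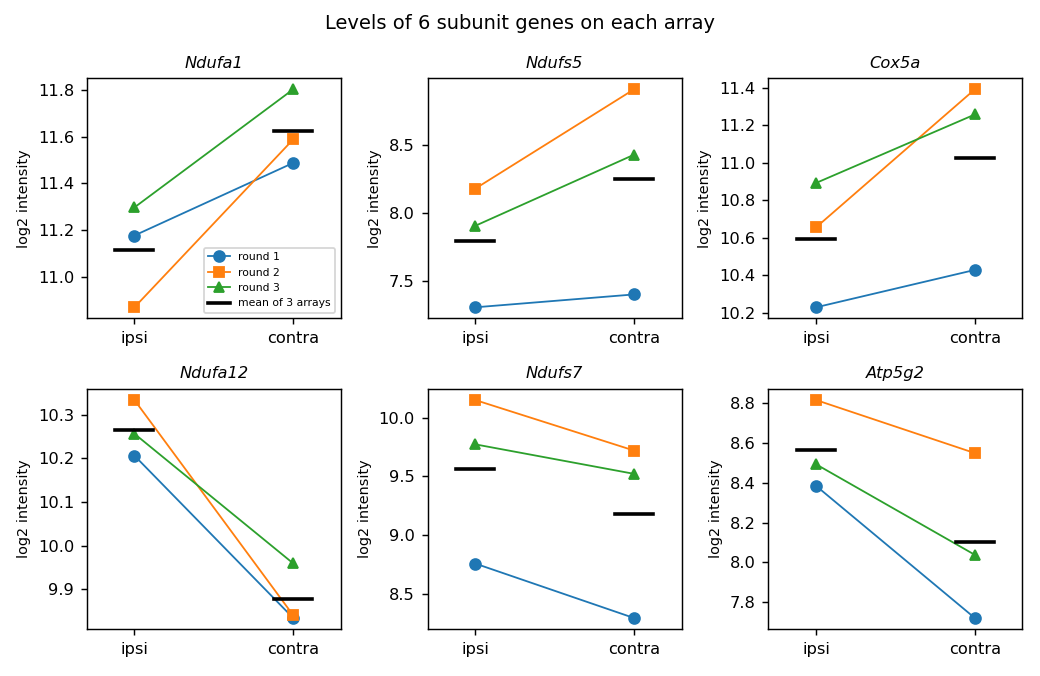
Log2 intensity of the 6 genes with an unadjusted p under 0.05 in the blocked limma fit, in ipsilateral and contralateral RGCs of each round, with lines joining the 2 arrays of a round. The lines run the same way in all 3 rounds of each gene, the groups are apart in Ndufa1 and Ndufa12 only, and no gene was called.

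The 6 genes plotted by array were picked from the fit to these same arrays, so that their agreement between rounds follows in part from the choice. The assembly factors help to build complex I and are not part of it. Ndufaf5, which modifies Ndufs7 during assembly, had the largest difference of all members. It measured 8.08, 7.56 and 8.64 in ipsilateral and 8.44, 9.46 and 8.81 in contralateral RGCs. The differences of −0.36, −1.90 and −0.17 gave a mean of −0.81 ± 0.95 (SD, n = 3 rounds), of which round 2 made the largest share. Ndufaf8, a partner of Ndufaf5, had 0.53, −0.15 and 0.81, and Ndufaf1, which acts on the membrane arm, 0.02, −0.79 and −0.29. Ndufaf7, a methyltransferase of complex I assembly, had a mean of 0.18. Ndufa4l2, known as a gene induced by low oxygen, measured 7.22, 7.13 and 7.89 in ipsilateral and 6.66, 7.01 and 7.43 in contralateral RGCs and was higher in each round, by 0.38 ± 0.23 (SD, n = 3 rounds). Cox7a2l, which joins complexes III and IV into larger assemblies, had a mean of 0.04.

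The rounds disagreed on the side difference of the group as a whole. Round 1 gave a median difference of 0.14, round 2 one of −0.15 and round 3 one of −0.07, where the medians of all genes were 0.01, −0.02 and −0.03. In round 1, 62 of 89 members (69.7%) were higher in ipsilateral RGCs, against 51.0% of all genes, and in rounds 2 and 3 these were 31 (34.8%, against 47.8%) and 35 (39.3%, against 45.7%). The same sequence of a positive median in round 1 and negative medians in rounds 2 and 3 was seen in complexes I, IV and V and in the assembly factors, while complex II had 0.01, 0.04 and 0.14 and complex III 0.07, −0.26 and 0.00. Without round 1 the median of all members was −0.13, without round 2 it was 0.02 and without round 3 it was 0.01, so the median of the mean over 2 or 3 rounds was below 0 only where rounds 2 and 3 were both included.

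**Figure D3:**
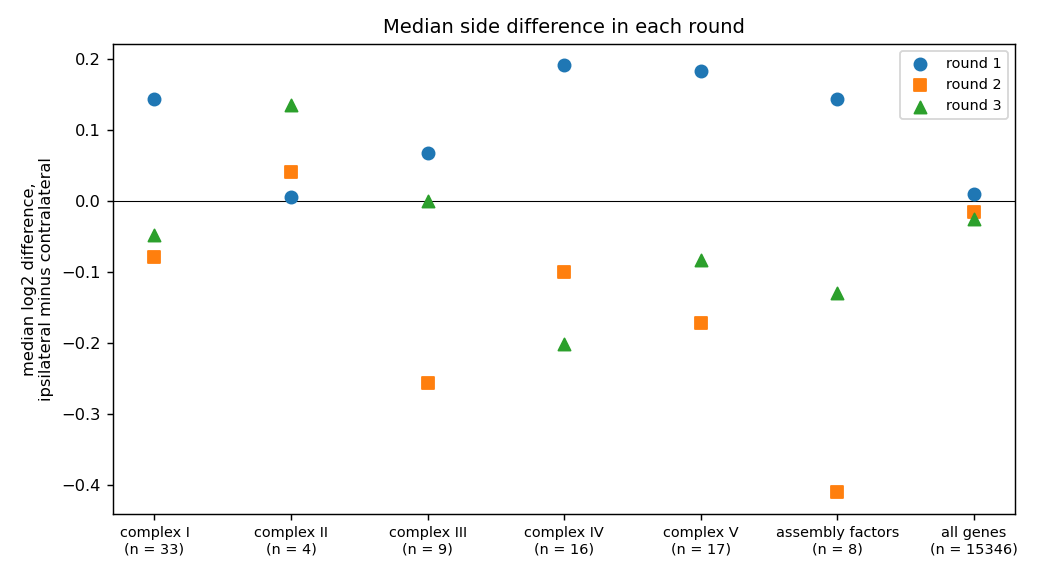
Median log2 difference, ipsilateral minus contralateral, of each complex, of the assembly factors and of all genes past the filter, with 1 symbol per round and the number of genes under each name. The round 1 median is the highest of the 3 in complexes I, III, IV and V and in the assembly factors, and the 3 medians of all genes lie between −0.03 and 0.01.

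The single genes behind the plot of round medians followed the same split. A gene was higher in ipsilateral RGCs in round 1 and lower in round 2 for 39 of 89 members (43.8%), compared with 22.9% of all genes and 22.9% of those in the brighter 50% of probe sets, and 27 members (30.3%) were also lower in round 3, compared with 12% of all genes. Atp5e, the epsilon subunit of complex V, had 0.71 in round 1 and −0.82 in round 2. Ndufaf2, an assembly factor, had 0.48 and −0.65, and Atp5j2, a membrane subunit of complex V, 0.48 and −0.47. In round 3 these genes had −0.19, 0.30 and 0.09, so of them only Atp5e was also lower there. Across the 89 members the differences of rounds 1 and 2 had a correlation of 0.109, those of rounds 1 and 3 one of 0.211 and those of rounds 2 and 3 one of 0.179. Across all genes it was 0.386, 0.521 and 0.483. The members share the arrays and are not independent replicates, so these are descriptions.

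A member had the same sign in all 3 rounds in 24 cases, 12 higher (13.5%) and 12 lower (13.5%) in ipsilateral RGCs. For all genes these shares were 17.6% and 20.2%. The 12 higher were Ndufa2, Ndufa12, Ndufa13, Ndufc1, Ndufs3 and Ndufs7 of complex I, Sdha, Uqcr11, Atp5c1, Atp5g2 and Atp5h of complexes II, III and V, and Ndufa4l2. The 12 lower were Ndufa1, Ndufb3, Ndufs5, Ndufv2 and Ndufv3 of complex I, Sdhb, Cox5a, Cox7a1, Atp5g3, Atp5l and Atp5o of complexes II, IV and V, and Ndufaf5. Complexes I, II and V thus held genes on both lists.

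Levels differed between rounds as well as between sides, in the members as in most genes on the arrays. The medians of the arrays differed between rounds, as given above, so levels of different rounds may not be on 1 scale. The range of the 3 round means, each over both sides, was larger than the mean side difference in 86 of 89 members (96.6%, against 92% of all genes), with Ndufa1, Ndufa12 and Ndufaf5 as the exceptions. The range was also taken after each array was centred on its median, and set against the side difference of the deposited scale. It was then larger in 85 of 89 members (95.5%, against 85.1%), with Ndufaf5, Atp5g2, Ndufs5 and Ndufa2 as the exceptions. Ndufa1 and Ndufa12 were thus exceptions only where the range was not centred. The side difference after centring was not used in this count. The median range between rounds was 0.70 over the members and 0.88 over all genes, and 0.59 for both after centring. On the deposited scale it was widest in Uqcrfs1, whose ipsilateral values were 7.80, 8.67 and 9.55 and contralateral values 7.78, 9.04 and 9.60, and narrowest in Ndufa12, with 0.09, and Atp5a1, with 0.19. After centring, Uqcrfs1 was still the widest, while Ndufa12 and Atp5a1 had 0.81 each and the narrowest was Ndufaf3, with 0.09.

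**Figure D4:**
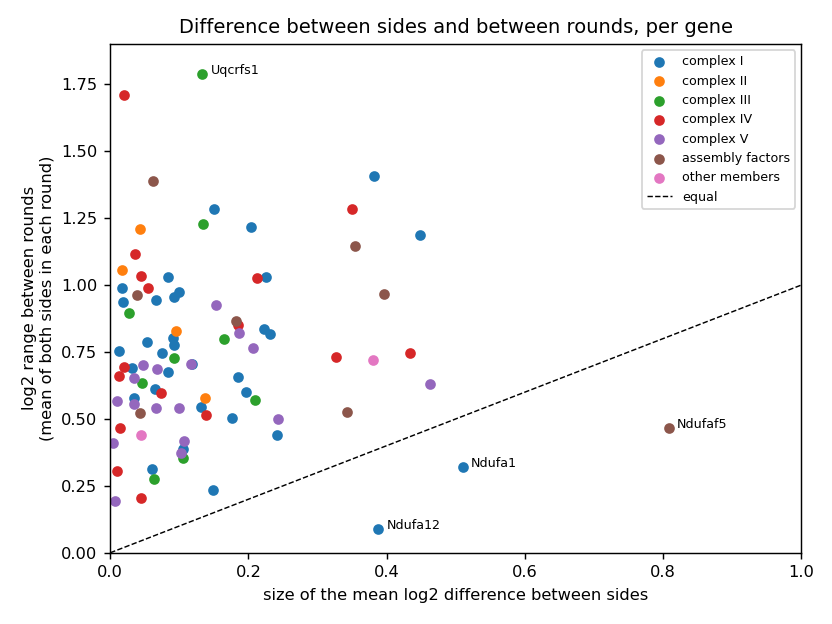
For each of the 89 genes, the size of the mean log2 difference between sides is plotted on the horizontal axis and the log2 range of the 3 round means on the vertical axis, coloured by complex, with a dashed line where both are equal. Of the 89 points, 86 lie above the line, and those below it are Ndufa1, Ndufa12 and Ndufaf5, on the deposited scale without centring.

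Probe sets for the same gene often disagreed in sign. Of 49 members with more than 1 probe set past the filter, 22 had the same sign of the mean difference in all of them, and the other 40 members had a single probe set. No such share over all genes is given here, so the count is not read as particular to these members. Sdha and Cox5a were among the 22. Among those outside the 22 were Ndufa12, Ndufv1, Ndufaf8, Uqcr10, Cox7c, Cox8a, Atp5a1 and Atp5h. The further probe sets past the filter gave −0.01 and −0.04 for Cox8a and −0.09 for Ndufaf8. Atp5h was higher in ipsilateral RGCs in each round by its brightest probe set. By its other probe set it was lower in each, with −0.06, −0.08 and −0.12.

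Genes that work beside the complexes were counted from lists of pathways. None of the 99 genes past the filter in these 7 lists was called in limma in either direction. The study's own list, at 2-fold and a corrected p under 0.05, holds Slc2a1 and Hk2 as higher in ipsilateral RGCs. It also holds Cox15 as lower, by a probe set other than the one used here. Counts of genes with 1 sign in all 3 rounds stand beside 17.6% higher and 20.2% lower over all genes. Of 17 genes for the assembly of complex IV, 4 were higher and 1 lower in all 3 rounds, and the largest mean differences were 0.57 in Pet100 and 0.43 in Sco2, a copper chaperone, upward, and −0.34 in Cox15 and −0.27 in Surf1 downward. Of 20 further assembly genes of complexes I, II, III and V, 0 were higher and 6 lower in each round, and the largest mean differences were −0.95 in Atpaf1, which helps to build the head of complex V, −0.50 in Uqcc2, which acts on complex III, 0.48 in Sdhaf4 and 0.24 in Uqcc3. Cycs, the somatic cytochrome c, had −0.05, Cyct, the testis form, 0.04, and Hccs, which attaches the heme, 0.10.

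Among 14 regulators of mitochondrial biogenesis the median difference was 0.04, with Polg2 at 0.83 and Polg at 0.70, both of the mitochondrial DNA polymerase, and Tfb2m at −0.33 and Tfb1m at −0.22, both of the mitochondrial transcription machinery. Nrf1, which encodes the factor whose letters were searched above, had 0.38, 0.55 and 0.02. The 12 genes of the citric acid cycle had a median of −0.04, with Suclg2 at 1.28 and Ogdh at 0.49, and Dld at −0.36 and Dlst at −0.21. For 17 genes of mitochondrial import and membrane transport the median was 0.04, with Timm44 at 0.33 and Hspa9 at 0.31, and Slc25a4 at −0.22 and Vdac3 at −0.15. The 16 genes of glycolysis had a median of −0.10 and the widest values. The glucose transporter Slc2a1 had 1.66 ± 0.42 (SE), with a limma adjusted p of 0.268. The hexokinase Hk2 had 1.49 ± 0.41 (SE), with a limma adjusted p of 0.394. With the replicate block the limma adjusted p was 0.162 for Slc2a1 and 0.0874 for Hk2. The neuronal transporter Slc2a3 had −1.02 and the common hexokinase Hk1 −0.60. In these 7 lists, 5 of 99 genes had an unadjusted p under 0.05 in limma, where 2.74% of all genes were higher and 0.3% lower at that p. Of the 5, 3 were in glycolysis, 1 in the citric acid cycle and 1 in the assembly of complexes I, II, III and V. Slc2a1, Hk2 and Suclg2 were higher in ipsilateral RGCs, and Slc2a3 and Atpaf1 were lower.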

How the data were processed

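Amplified cDNA was hybridized to Affymetrix mouse genome arrays. The authors deposited log2 values of each probe set, computed by RMA in Affymetrix Expression Console 1.1 per the labels. How the arrays were grouped for normalization is not given in the sources used here. Array medians differed between rounds more than between the sides of a round, so differences are given within rounds.

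From 45101 probe sets, 64 controls were left out and 36029 with a mean at or above the 20th percentile were kept. A single gene symbol stood beside 34945 probe sets, more than 1 beside 932 and none beside 9160, and only the first kind counted as genes. All 91 members were found in RefSeq. Sides were compared over 3 arrays each by lmFit and eBayes of limma 3.58.1 (R 4.3.3). No block was used, since the methods state thresholds of size and of adjusted p (Benjamini–Hochberg) but no paired test. The fit was run on simulated data with independent noise and changes larger than the mean difference of any member. That run cannot show whether differences of the size seen here would be found. Errors are the SD over rounds or the SE of the fit, and the number of arrays limits the precision. Sides of a round were processed together: centred within groups, arrays with the same number correlated at 0.566, 0.574 and 0.705, and others at −0.403 to −0.219. Members, lists and tests were chosen with earlier results of these data known. Named were the 2 largest differences each way per complex and per pathway list, core subunits, isoform pairs and called genes. Genes named beside counts, for their probe sets, matched letters or round pattern, were chosen after their values were seen. Alternatives covered the block, filter, scaling, weights, choice of probe set, symbols and single arrays.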

Additional observations from a re-analysis of the deposited data

How the results depend on the processing

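The count of members called, 0 higher and 0 lower in limma, was the same under every alternative run. With the replicate block, which the pairing of the rounds allows, it was 0 and 0, and the lowest adjusted p of a member fell to 0.263. Members differed in sign from the reported values in 15 cases with array weights, 13 after centring on array medians, 9 after a second quantile normalization and 20 to 32 when 1 array was left out. The fits without 1 array had no block, so they set 2 rounds on 1 side against 3 on the other. Levels differed between rounds, so those sign changes do not describe the side difference within rounds alone. The median difference of complex II moved from −0.01 to 0.0599 with the second quantile normalization, and the cause was not tested. The medians of the complexes otherwise changed by less than their spread over rounds. That of all members ranged from −0.13 to 0.02 when 1 round was left out, and was −0.08 after centring. Members higher and lower in all 3 rounds numbered 8 and 16 after centring, and 8 and 18 with the next brightest probe set. Leaving out an array leaves 2 complete rounds, so no count over 3 rounds could be made there. Updated symbols gave the same 91 members. Avoiding probe sets marked as shared between transcripts, chosen after seeing the data, changed 18 members and gave 10 higher and 11 lower. Of 396 recomputed values of 44 named genes, 1 moved by more than its spread, that of Atp5a1 after centring, to −0.04. With 3 arrays per side, only 43 of 89 members have an interval within 2-fold without the block.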
